A study of Saccharomyces cerevisiae with 6 samples.

Results

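The genes described here make the beta-glucan of the yeast cell wall, and 9 of them were followed. They are FKS1 (YLR342W), GSC2 (YGR032W, also called FKS2) and FKS3 (YMR306W), SMI1 (YGR229C, also called KNR4), and KRE1 (YNL322C), KRE6 (YPR159W), SKN1 (YGR143W), KRE9 (YJL174W) and KNH1 (YDL049C). A gene was included when a probe set was annotated to it and to no other gene. Each of the 9 had 1 such probe set, out of 10928 probe sets on the array. In all, 5498 probe sets had 1 S. cerevisiae gene and covered 5449 genes.

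The 6 arrays came from wild-type Saccharomyces cerevisiae in mid-log phase. In 3 samples the cells had grown with OGT2468 at 0.1 µM for 3 h. OGT2468 is a compound for which the labels give a code name and no structure. The cells of the other 3 samples had grown with DMSO at 0.1% for the same time. No DMSO content was recorded here for the OGT2468 samples. The submitters call the samples biological, and beyond "wild type" the sources used here state neither strain nor mating type. The comparison asked which transcripts differed after exposure to the compound.

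Beta-glucan is the main structural polymer of the yeast wall. Long 1,3-beta-glucan chains are made at the plasma membrane from UDP-glucose by a synthase with an Fks catalytic subunit and the GTPase Rho1 as its regulator. Branched 1,6-beta-glucan ties mannoproteins and chitin to these chains, and its synthesis needs membrane and secreted proteins of the ER, the Golgi and the cell surface, many of them found through resistance to the K1 killer toxin (the KRE genes). Several genes exist as related pairs, of which 1 member is the main form in growing cells and the other is known as its homologue or backup.

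Of the 9 genes 2 rose after OGT2468 and none fell (limma, Benjamini-Hochberg adjusted p under 0.05 over all tested probe sets). Of all 8968 tested probe sets 1.83% were called higher and 0.758% lower. Of the 5498 named probe sets, those with 1 S. cerevisiae gene, 148 were called higher and 60 lower. The 2 genes that rose were GSC2, the stress-inducible synthase subunit, at 1.98-fold, and KRE6, a membrane protein of 1,6-glucan synthesis, at 1.27-fold. Levels are given below as log2 of the quantile-normalized intensity plus 16, and a change is the mean of the OGT2468 arrays minus the mean of the DMSO arrays on this scale. The change was positive for 8 genes and negative for SMI1, and the median over the 9 was 0.15, against -0.02 over all named probe sets. The count of 2 was 1 without any 1 array and with the replicate number as a block, and 0 with no scaling between arrays. The main fit used no pairing of the arrays, and with the block the call of KRE6 was lost (limma adjusted p = 0.141). The signs of the small changes also depended on how the arrays were scaled to each other, and the median over the 9 was -0.11 with no scaling and -0.013 with scaling on the hybridization controls.

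On each array the intensity of every one of the 9 probe sets lay above background. Background was the 98th percentile of the annotated probe sets without a single S. cerevisiae gene, counted here as another species. This class would also hold any probe set annotated to several genes. The background was between 21.8 and 25.9 intensity units. FKS3 and KNH1 were the dimmest. Their lowest intensities were 1.80 and 1.89 times the background of the same array, while SKN1 never came below 18.9 times it and the other 6 genes never below 50.5 times it. Values of FKS3 and KNH1 are therefore the least precise of the set.

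**Figure D1:**
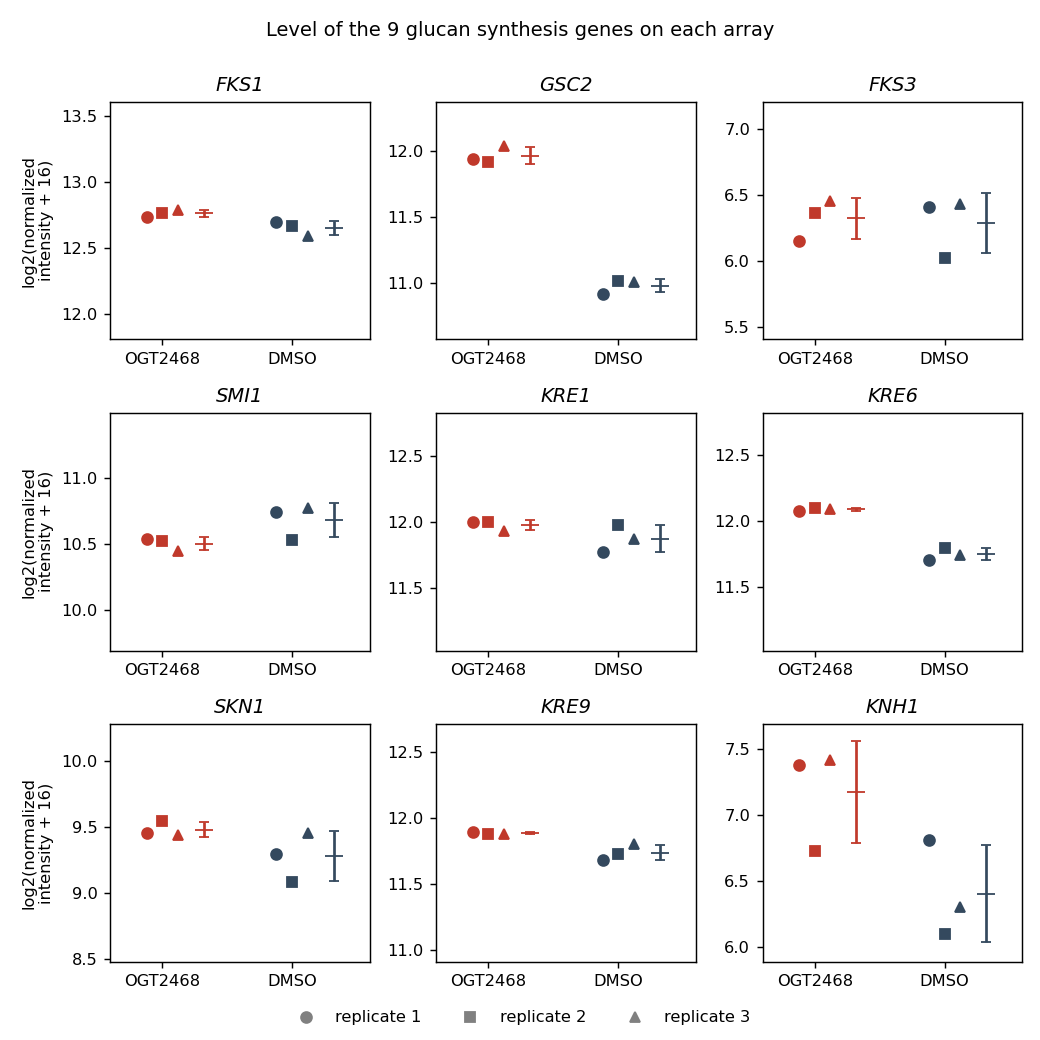
Levels of the 9 genes, as log2(normalized intensity + 16), on the 3 OGT2468 arrays (red) and the 3 DMSO arrays (dark blue); each panel spans the same log2 range, symbols give the replicate number, and the bar beside the points is the mean with its SD. GSC2 and KRE6 separate clearly, FKS1 and KRE9 separate by a narrow gap, and the points of the other 5 genes overlap between groups.

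FKS1 encodes the main catalytic subunit of 1,3-beta-glucan synthase in growing cells and is a target of the echinocandin antifungals. Its deposited intensities were 7121.9, 6322.0 and 5805.5 in OGT2468, against 6726.7, 6859.5 and 7154.1 in DMSO. The normalized levels were 12.73, 12.77 and 12.79 in OGT2468 and 12.70, 12.67 and 12.59 in DMSO. All 3 treated arrays lay above all 3 DMSO arrays after normalization, by a narrow margin, whereas the deposited intensities of the groups overlapped. The change of 0.11 ± 0.06 (SE, n = 3 per group) did not pass (limma adjusted p = 0.43), and its 95% interval ran from 0.975-fold to 1.19-fold.

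GSC2 encodes the alternative catalytic subunit, known for its induction by cell wall stress, calcium signalling, mating pheromone and poor carbon sources. Its deposited intensities were 4068.5, 3352.6 and 3425.2 in OGT2468, against 1983.2, 1998.6 and 2631.3 in DMSO. The groups did not overlap on the deposited scale, before any scaling of the arrays, and the lowest treated value was well above the highest DMSO value. The normalized levels were 11.93, 11.92 and 12.03 in OGT2468, a mean of 11.96 ± 0.06 (SD, n = 3), and 10.92, 11.01 and 11.00 in DMSO, a mean of 10.98 ± 0.05 (SD, n = 3). The change was 0.98 ± 0.06 (SE; limma adjusted p = 0.00234), with a 95% interval of 1.77-fold to 2.21-fold. By size of rise GSC2 ranked 28 among the 5498 named probe sets. The replicate numbers were taken to pair the arrays, which the sample titles do not state. Over these 3 pairs the change was 1.02, 0.91 and 1.03. With the replicate number as a block GSC2 still passed (limma adjusted p = 0.0426), and it also passed without any 1 array. With no scaling between arrays its change was 0.72 and the call was lost (adjusted p = 0.129).

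FKS3, a further member of the family known for a role in the spore wall, was close to background. Its deposited intensities were 55.0, 61.8 and 58.4 in OGT2468, against 71.6, 45.4 and 91.9 in DMSO. The DMSO values lay on both sides of the treated ones. The change was 0.04 ± 0.14 (SE; limma adjusted p = 0.932), and its 95% interval ran from 0.807-fold to 1.30-fold. The sign of this small change turned without DMSO replicate 2 (-0.10) and without OGT2468 replicate 3 (-0.03).

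SMI1, also known as KNR4, encodes a regulator that links 1,3-glucan synthesis to the Slt2 kinase pathway. Its normalized levels were 10.54, 10.52 and 10.44 in OGT2468 and 10.74, 10.53 and 10.77 in DMSO. DMSO replicate 2 lay among the treated values and the other DMSO arrays above them. The change was -0.18 ± 0.08 (SE; limma adjusted p = 0.368), the single negative value among the 9 genes. Its 95% interval ran from 0.765-fold to 1.02-fold.

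Among the genes of 1,6-beta-glucan synthesis, KRE6 and SKN1 encode related membrane proteins of the secretory pathway that resemble glycoside hydrolases. The normalized levels of KRE6 were 12.08, 12.10 and 12.09 in OGT2468, a mean of 12.09 ± 0.012 (SD, n = 3), and 11.71, 11.79 and 11.74 in DMSO, a mean of 11.75 ± 0.05 (SD, n = 3). The groups were separated by several times their spread after normalization. The deposited intensities, 4496.8, 3831.8 and 3572.7 in OGT2468 and 3398.0, 3643.4 and 4175.6 in DMSO, overlapped. The change was 0.34 ± 0.06 (SE; limma adjusted p = 0.0422), with a 95% interval of 1.15-fold to 1.39-fold and values of 0.37, 0.30 and 0.35 over the 3 numbered pairs of arrays. Its call was lost without any 1 array (adjusted p between 0.0834 and 0.152) and with the replicate number as a block (adjusted p = 0.141). With no scaling between arrays the change of KRE6 was 0.08 (adjusted p = 0.811), and in all the call held under 5 of 17 alternative settings.

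SKN1, the homologue of KRE6, had normalized levels of 9.45, 9.55 and 9.44 in OGT2468 and 9.30, 9.08 and 9.46 in DMSO. DMSO replicate 3 reached the treated values and DMSO replicate 2 lay lowest. The change was 0.20 ± 0.11 (SE; limma adjusted p = 0.422), and its 95% interval ran from 0.958-fold to 1.38-fold. Without DMSO replicate 2 the change of SKN1 was 0.10, and without DMSO replicate 3 it was 0.29.

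KRE9 and KNH1 encode related secreted, O-glycosylated proteins that 1,6-glucan synthesis needs. The normalized levels of KRE9 were 11.89, 11.88 and 11.88 in OGT2468 and 11.68, 11.73 and 11.80 in DMSO. The treated arrays agreed to within 0.0076 (SD) and all lay above the DMSO arrays. The change was 0.15 ± 0.06 (SE; limma adjusted p = 0.301), and its 95% interval ran from 1.001-fold to 1.22-fold.

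KNH1, known in the absence of KRE9 as its backup, had deposited intensities of 146.5, 80.8 and 125.2 in OGT2468, against 101.4, 47.6 and 81.5 in DMSO. OGT2468 replicate 2 lay below DMSO replicates 1 and 3, so that the groups overlapped, although each treated array was above the DMSO array of the same number. The normalized levels were 7.37, 6.72 and 7.42 in OGT2468 and 6.81, 6.10 and 6.30 in DMSO. The change of 0.77 ± 0.26 (SE) was the second highest of the 9 genes, with 0.56, 0.63 and 1.12 over the numbered pairs. It did not pass (limma adjusted p = 0.221), and its 95% interval ran from 1.10-fold to 2.65-fold. Because KNH1 is dim, the size depended on the pseudocount, with a change of 0.90 at a pseudocount of 1 and 0.54 at 64.

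KRE1 encodes a cell surface glycoprotein of 1,6-glucan assembly that also serves as a receptor of the K1 toxin. Its normalized levels were 12.00, 11.99 and 11.93 in OGT2468 and 11.77, 11.97 and 11.87 in DMSO. DMSO replicate 2 lay among the treated values. The change was 0.10 ± 0.07 (SE; limma adjusted p = 0.546), and its 95% interval ran from 0.949-fold to 1.22-fold. Without DMSO replicate 1 the change of KRE1 was 0.053.

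**Figure D2:**
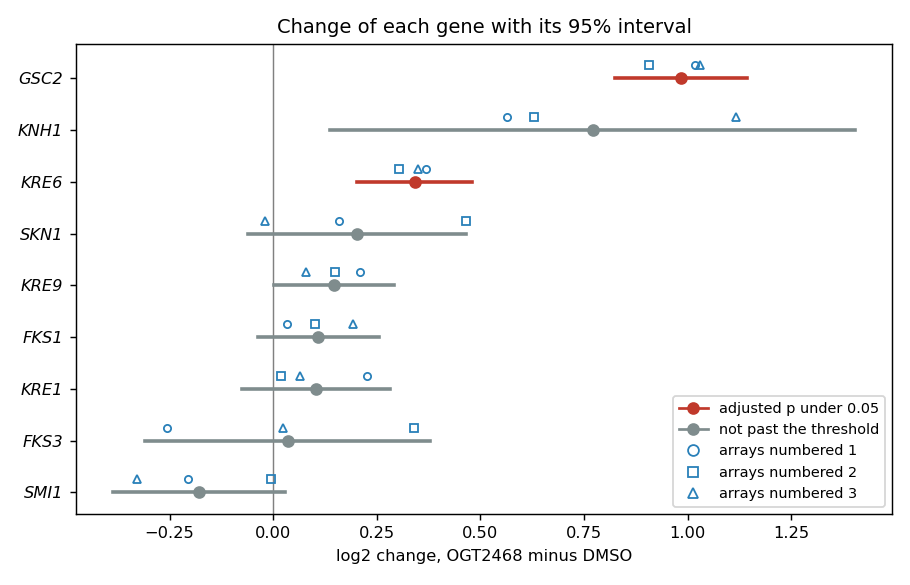
Change of each gene, OGT2468 minus DMSO on the log2 scale, as a point with its 95% interval from limma (red, adjusted p under 0.05; grey, not), and above it the differences between arrays of the same replicate number (open symbols). GSC2 at 0.98 and KRE6 at 0.34 passed, and KNH1 at 0.77 had the widest interval.

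After normalization the groups did not overlap in 4 of the 9 genes (FKS1, GSC2, KRE6 and KRE9), each with OGT2468 higher. Over all tested probe sets 12% did not overlap with OGT2468 higher and 12.1% with OGT2468 lower. Among the 5498 named probe sets 847 did not overlap with OGT2468 higher and 895 with OGT2468 lower. On the deposited scale GSC2 was the single gene of the 9 whose groups did not overlap. After normalization OGT2468 was above DMSO in all 3 numbered pairs for 6 genes (FKS1, GSC2, KRE1, KRE6, KRE9 and KNH1). It was above in 2 pairs for FKS3 and SKN1, and in no pair for SMI1. How often this occurred over all probe sets was not counted. Of these 6 genes, FKS1 (-0.11), KRE1 (-0.16) and KRE9 (-0.12) had a negative mean log2 change before normalization. That of GSC2, KRE6 and KNH1 was positive.

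The genes differed in their spread as well as in their change. The SD between arrays of the same group, averaged over both groups as variances, was 0.03 for KRE6, 0.04 for FKS1 and KRE9 and 0.06 for GSC2 on the log2 scale. It was 0.08 for KRE1, 0.10 for SMI1 and 0.14 for SKN1. For the dim genes it was 0.19 (FKS3) and 0.38 (KNH1).

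Related genes were then compared within each array, where the scaling of the array largely cancels. Levels of different probe sets cannot be set against each other, so the size of each within-array difference carries no meaning by itself, and its shift between groups is what was compared. On the deposited scale the ratio of GSC2 to FKS1 was 0.571, 0.530 and 0.590 in OGT2468 and 0.295, 0.291 and 0.368 in DMSO. All 3 treated arrays lay above all 3 DMSO arrays. On the normalized log2 scale GSC2 minus FKS1 averaged -0.80 ± 0.05 in OGT2468 and -1.68 ± 0.10 in DMSO (SD, n = 3 each). The shift was 0.88 ± 0.06 (SE), a 1.83-fold larger change of GSC2 than of FKS1 (exact two-sided permutation test, p = 0.1, and 0.25 after adjustment over the 5 pairs tested). With 3 arrays against 3 this test cannot go below 0.1. The shift lay between 0.83 and 0.94 under the 13 other settings it was computed with, which included no scaling between arrays.

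GSC2 also shifted against FKS3, by 0.95 ± 0.17 (SE), with no overlap of the groups (exact permutation p = 0.1, adjusted 0.25). FKS3 and FKS1 shifted by -0.07 ± 0.16 relative to each other (exact permutation p = 0.7, adjusted 0.7), and the groups overlapped. Their shift turned to 0.025 without DMSO replicate 3.

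In the 1,6-glucan pairs the within-array differences of the groups overlapped. SKN1 minus KRE6 averaged -2.61 ± 0.05 in OGT2468 and -2.47 ± 0.22 in DMSO (SD, n = 3 each), a shift of -0.14 ± 0.13 (SE; exact permutation p = 0.4, adjusted 0.5). That shift was -0.26 without DMSO replicate 2 and -0.053 without DMSO replicate 3. KNH1 minus KRE9 averaged -4.71 ± 0.38 in OGT2468 and -5.34 ± 0.41 in DMSO (SD, n = 3 each), a shift of 0.62 ± 0.32 (SE; exact permutation p = 0.2, adjusted 0.333). The SD of KNH1 alone was 0.39 in OGT2468 and 0.37 in DMSO, while that of KRE9 was 0.0076 in OGT2468 and 0.06 in DMSO.

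**Figure D3:**
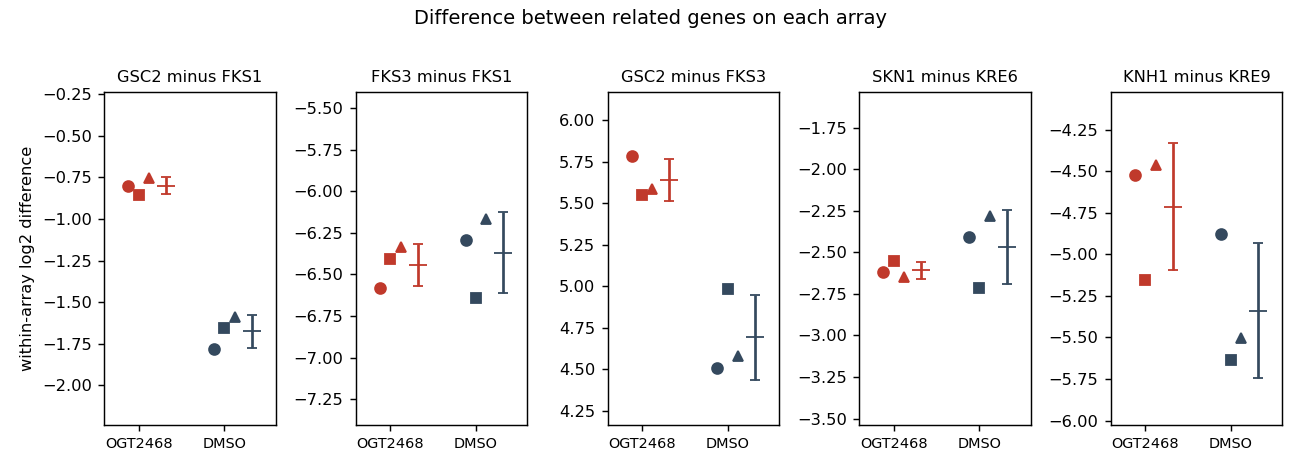
Within-array log2 difference of 5 pairs of related genes on the OGT2468 arrays (red) and the DMSO arrays (dark blue), each panel spanning the same range, with the mean and SD beside the points. GSC2 moved up against FKS1 (shift of 0.88) and against FKS3 (0.95) without overlap, and the other 3 pairs overlapped.

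The size and sign of the small changes depended on how the arrays were brought to a common scale, because overall brightness differed between arrays: the median over S. cerevisiae probe sets was 842, 758 and 691 intensity units on the OGT2468 arrays and 897, 786 and 1150 on the DMSO arrays. With no scaling the median change of all named probe sets was -0.27 and 3 of the 9 genes were above 0 (GSC2, KRE6 and KNH1). With scaling on the hybridization controls that median was -0.18 and 4 genes were above 0. Under each of these settings 8 of the 9 genes, all but SMI1, stayed above the median of the named probe sets. KNH1 was at 0.54 with no scaling and at 0.63 with the hybridization controls, GSC2 at 0.72 and 0.82, and KRE6 at 0.08 and 0.18. A total RNA difference per cell would be removed by quantile normalization and was not measured.

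**Figure D4:**
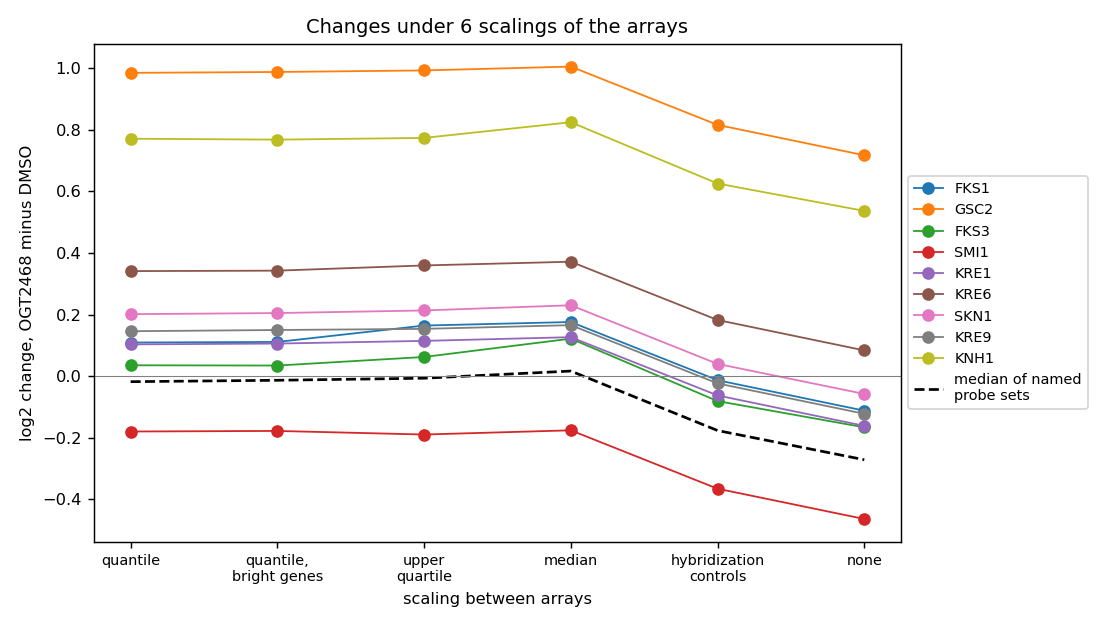
Log2 change of the 9 genes, OGT2468 minus DMSO, under 6 ways of scaling the arrays to each other; the dashed line is the median of all named probe sets. GSC2, KNH1 and KRE6 were above 0 under all 6, SMI1 was below 0 under all 6, and the order of these 4 genes was the same throughout.

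The genes whose levels followed GSC2 most closely over the 6 arrays were YPS3, a cell surface aspartic protease gene, with a Pearson r of 0.9994, PIR3, a cell wall protein gene, with 0.9990, and SRL3 with 0.998. All 3 passed, with changes of 2.47, 3.48 and 1.57. Those closest to KRE6 were TVP38, a Golgi membrane protein gene (r = 0.9997), SKM1, a protein kinase gene (r = 0.998), and DIA1 (r = 0.997). SKM1 (0.67) and DIA1 (1.03) passed and TVP38 (0.30) did not (limma adjusted p = 0.0599). The call of SKM1 was lost under 7 of 17 alternatives, namely no scaling (adjusted p = 0.34), control scaling, the replicate block (0.0674) and the fits without DMSO replicate 1, DMSO replicate 3, OGT2468 replicate 2 or OGT2468 replicate 3. DIA1 was lost with no scaling (adjusted p = 0.102), and TVP38 passed under 4 of 17 alternatives. These correlations describe 6 arrays in 2 groups, taken from 5186 named probe sets above background on all arrays, and the arrays share their scaling.

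The rest of the glucan machinery was read from fixed lists. Beside the counts of these lists, 148 of all 5498 named probe sets were called higher and 60 lower. Of 8 further genes that act in 1,6-glucan synthesis, 3 rose and none fell, with a median change of 0.17. They were KEG1 (0.51 ± 0.08, SE; limma adjusted p = 0.0309), which encodes an ER membrane protein that binds Kre6, TRS65 (0.48 ± 0.07; adjusted p = 0.0227), also called KRE11 and encoding a subunit of a Golgi trafficking complex, and ROT1 (0.41 ± 0.06; adjusted p = 0.0331), an ER chaperone gene. Each of these 3 calls was lost without any 1 array, with the replicate number as a block (adjusted p between 0.108 and 0.12), with no scaling, with control scaling and with median subtraction. KRE5, which encodes an ER protein related to glucosyltransferases, had 0.26, and the ER glucosidase gene ROT2 had -0.18. BIG1 (0.08), the calnexin gene CNE1 (-0.09) and the glucosidase gene CWH41 (0.0047) completed the list, and none of these 5 passed.

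Of 3 genes that supply UDP-glucose none passed, in either direction, and the median change was 0.07. The phosphoglucomutase genes PGM1 and PGM2 had 0.18 and -0.12, with adjusted p of 0.268 and 0.53 in limma. None of 5 genes of Rho1, its exchange factors and the kinase Pkc1 passed either, and their median was 0.0081. RHO1 had 0.08 (adjusted p = 0.593) and PKC1 had -0.11 (adjusted p = 0.429).

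Among 17 genes that remodel or hydrolyse wall glucan, 1 rose and none fell, with a median of 0.04. It was CRH1, which encodes a transglycosylase that joins chitin to glucan, at 0.83 ± 0.06 (SE; limma adjusted p = 0.00315), with deposited intensities of 5235.4 to 6913.9 in OGT2468 and 3547.2 to 4634.8 in DMSO. The intensities of CRH1 did not overlap before scaling, and the call was lost with the replicate block (adjusted p = 0.0528), without scaling and with scaling on the hybridization controls. In the other direction SCW11 had -0.40 ± 0.08 (SE) and did not pass (limma adjusted p = 0.0699). Its deposited intensities did not overlap either, at 1482.0 to 2000.5 in OGT2468 and 2670.8 to 3206.6 in DMSO.

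Of 13 genes of the cell wall integrity sensors, kinases and transcription factors, which lie upstream of GSC2, 3 rose and none fell, with a median of 0.15. KDX1, related in sequence to the kinase Slt2, had 2.50 ± 0.11, SLT2 had 1.10 ± 0.08, and RLM1, the transcription factor gene of the pathway, had 0.41 ± 0.07 (SE; limma adjusted p = 0.00104, 0.00285 and 0.0436). The call of RLM1 held under 5 of 17 alternatives and was lost without any 1 array, and that of SLT2 was lost with no scaling (adjusted p = 0.0558). With the replicate block KDX1 alone of the 3 passed (adjusted p = 0.0321), against 0.0527 for SLT2 and 0.135 for RLM1. Of 7 genes of the calcineurin branch, the calcium-activated route that also acts on GSC2, 1 rose and none fell, with a median of 0.20. It was the calmodulin kinase gene CMK2 at 0.81 ± 0.10 (SE; adjusted p = 0.0143), which passed with the replicate block (adjusted p = 0.0486) and did not pass without DMSO replicate 1, DMSO replicate 3, OGT2468 replicate 2 or OGT2468 replicate 3. These lists were written with earlier results of these data known. Of all 5498 named probe sets 148 were called higher and 60 lower.

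**Figure D5:**
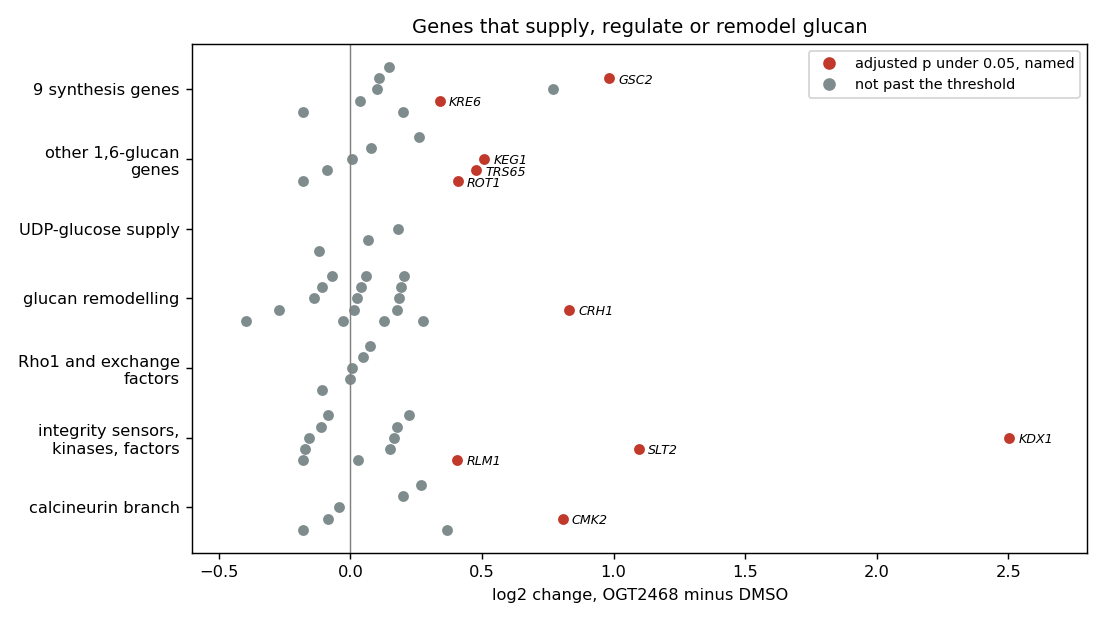
Log2 change, OGT2468 minus DMSO, of every gene of the 9 and of 6 lists around them (red and named, adjusted p under 0.05; grey, not); the vertical position within a list only spreads the points. Most points lie within 0.3 of 0, and KDX1 at 2.50, SLT2 at 1.10 and GSC2 at 0.98 lie farthest to the right.

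Mating type markers moved between the same groups. As a base, 60 of all 5498 named probe sets were called lower and 148 higher. Of 7 markers of a cells 3 fell, STE2 (-1.09), MFA2 (-1.06) and STE6 (-0.61), and of 5 markers of alpha cells 2 fell, HMLALPHA1 (-0.46) and MF(ALPHA)2 (-0.35), and no marker of either list rose (limma adjusted p between 0.00412 and 0.0494). With the replicate block STE2 alone of these 5 passed (adjusted p = 0.0426), against 0.0527 for MFA2, 0.0748 for STE6, 0.105 for HMLALPHA1 and 0.133 for MF(ALPHA)2. Both alpha calls were lost without any 1 array, that of STE6 without any 1 array other than OGT2468 replicate 2, and that of MFA2 when either OGT2468 replicate 1, OGT2468 replicate 3 or DMSO replicate 3 was left out. The summed normalized intensity of the a markers was 403 to 419 in OGT2468 and 755 to 896 in DMSO, and that of the alpha markers was 31044 to 33587 in OGT2468 and 38626 to 39610 in DMSO. On the deposited scale no a marker exceeded 418.6 (STE2 in DMSO), and no alpha marker lay below 1043.0 (HMLALPHA1 in OGT2468). The medians of the arrays were 691 to 1150. The falls of STE2, MFA2 and STE6 are thus changes of dim signals. No marker was at background on all 6 arrays, while 2 a markers, ASG7 and AGA2, did not exceed background on any OGT2468 array. The value of HMLALPHA1 is that of the probe set annotated to it, and a signal from related sequences was not tested. The part of these markers in the changes of the glucan genes was not tested. The log2 ratio of the 3′ to the 5′ probe set of ACT1, a measure of RNA integrity, was 0.33 to 0.41 in OGT2468. In DMSO it was 0.30 to 0.35. The same ratio of SPT15 was 1.10 to 1.30 in OGT2468 and 0.93 to 1.43 in DMSO, highest on DMSO replicate 2.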

How the data were processed

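Per the labels' protocols, biotin-labelled RNA of 6 samples was hybridised to Affymetrix arrays. The authors deposited 1 linear intensity per probe set and array, and the submitters' processing notes name GCRMA; the sources used here state neither its version nor how these linear intensities were summarised. The deposited medians differed between arrays. Names came from the platform annotation and from 6477 genes of assembly R64, whose coordinates were not used. Of 10928 probe sets 213 controls were left out, as were 1747 counted as another species, whose annotation held no single S. cerevisiae gene. The 8968 others were quantile normalized, 16 was added and log2 taken, which understates changes of dim genes. Of these 8968, 5498 had 1 S. cerevisiae gene and 3470 had no annotated gene. Above background on at least 3 of 6 arrays were 5557 of the 8968, and 5195 named probe sets were above it on all 6. Most of the 3470 without an annotated gene were therefore not above background on 3 or more arrays. All 8968 entered the normalization and the fit, and the shares over all tested probe sets include these dim ones. limma 3.58.1 in R 4.3.3 (lmFit, eBayes, no covariate) was tested on simulated data first, and p-values were adjusted over the 8968. Shifts between related genes were tested by exact permutation of arrays. The precision is limited by 3 arrays per group.

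Replicate numbers come from the sample titles, which state no pairing of the arrays, and the main fit used none. Deviations from the group means correlated within each same-numbered pair of arrays (r = 0.30, 0.19 and 0.16 over 5195 named probe sets above background). Between arrays of different numbers r ran from -0.19 to -0.018. The deviations of a group sum to 0, so these values are not independent of each other. On this limited ground the numbers were taken to pair the arrays. The adjusted p-values and intervals of the main fit leave this pairing out. With the replicate block 27 probe sets were called higher and 14 lower, against 164 and 68 in the main fit. No 2 arrays were identical.

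The 9 genes and the lists were chosen with earlier results of these data known. Named were the 9 genes and the 3 genes most correlated with each that passed. Of the lists, every passing gene was named, and the 2 of lowest p where none passed. KRE5, ROT2, BIG1, CNE1, CWH41, SCW11, ASG7 and AGA2 were named after their values were seen. All 74 listed genes were matched. Probe sequences were not analysed here, so cross-hybridisation between related genes was not tested. The alternatives were 4 other scalings, pseudocounts of 1 and 64, 2 other sets of probe sets, a replicate block, eBayes with a trend, leaving out each array, a background at the 95th percentile and, added after seeing the data, quantile scaling on bright named probe sets.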

Additional observations from a re-analysis of the deposited data

How the results depend on the processing

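GSC2 passed under 16 of 17 alternatives and KRE6 under 5, so the count of 2 genes called higher was 0 with no scaling (GSC2 at 0.72, KRE6 at 0.084), 1 with control scaling (KRE6 at 0.18), upper quartile scaling (0.36), median subtraction (0.37), a pseudocount of 1 (0.34) and the replicate block (0.34), and 1 without any 1 array (GSC2 between 0.95 and 1.02, KRE6 between 0.32 and 0.36). No gene of the 9 was called lower under any alternative. With no scaling the sign turned for FKS1 (-0.11), FKS3 (-0.17), KRE1 (-0.16), SKN1 (-0.058), KRE9 (-0.12), PGM1 (-0.11) and RHO1 (-0.12), and with control scaling for FKS1 (-0.013), FKS3 (-0.081), KRE1 (-0.062), KRE9 (-0.023), PGM1 (-0.014) and RHO1 (-0.019). Without 1 array FKS3 ranged from -0.10 to 0.12, and its shift against FKS1 from -0.21 to 0.025. The replicate block changed no other call among the 9 genes.

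Over all probe sets 164 were higher and 68 lower. The counts were 22 and 44 with no scaling (33.3% higher, against 70.7%), 45 and 55 with control scaling (45.0% higher), 292 and 187 with a pseudocount of 64 (61.0% higher), 326 and 203 for named probe sets alone, 352 and 229 for probe sets above background on 3 of 6 arrays, 335 and 221 with a trend, and 27 and 14 with the replicate block. Median subtraction left 37 lower. Without 1 array 61 to 91 were higher and 28 to 40 lower.

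Of the lists, the other 1,6-glucan genes called higher numbered 0 with no scaling, control scaling, median subtraction and the block, 1 with upper quartile scaling and a pseudocount of 1, and 0 without any 1 array. Remodelling genes called higher numbered 0 with no scaling, control scaling and the block, 3 (and 1 lower) with a pseudocount of 64, named probe sets alone and the filter on background, and 4 (and 1 lower) with a trend. Integrity genes numbered 1 with no scaling and the block, and 2 without any 1 array. Calcineurin genes numbered 0 with no scaling and control scaling, 2 with a pseudocount of 64, named probe sets, the filter and a trend, and 0 or 1 without 1 array. The a markers called lower numbered 1 with the block and 1 to 3 without 1 array. The alpha markers called lower numbered 4 with a pseudocount of 64, named probe sets, the filter and a trend, 0 with the block, a pseudocount of 1 and 4 of the 5 other scalings (the exception being quantile scaling on bright named probe sets), and 0 or 1 without 1 array. The cause of these differences was not tested. Of the 9 glucan synthesis genes FKS3 and KNH1 lay nearest to background, and on the other lists ASG7 and AGA2 did not exceed it on any OGT2468 array.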
